A study of Rattus norvegicus with 8 samples.

Results

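Integrins and laminins were examined in the injured L5 dorsal root ganglia (DRG) of rats treated with a histone deacetylase inhibitor (HDACI) or vehicle. Genes were taken whose single symbol in the array annotation begins with Itga, Itgb, Lama, Lamb or Lamc, leaving out Itgam, Itgb2 and the integrin-binding proteins. This gave 26 genes of 14497 with a probe set of their own, 19 with integrin symbols and 7 laminins. The 19 include Itgbl1, a related protein that is not an integrin chain. Each of the 26 had a single such probe set. The 4 HDACI rats received MS-275, a class I HDACI, at 30 nmol per day into the intrathecal space from an osmotic pump, and the 4 vehicle rats received the DMSO and saline solvent in the same way. All 8 were adult male Wistar rats whose L5 spinal nerve had been cut, and the ganglion on the injured side was taken on day 14. The groups therefore share the nerve injury, the catheter and the solvent, and no uninjured ganglion was analysed here. The paper found no clear difference in histone acetylation between drug and vehicle L5 ganglia. By its account the drug seemingly failed to arrive there at detectable levels, so inhibition of the enzymes was not shown in this tissue. RNA of each ganglion was read on its own Rat Gene 1.0 ST array from Affymetrix, and values are given on the log2 scale of the deposited RMA data.

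Integrins are cell surface receptors built from an alpha and a beta chain, which bind the extracellular matrix or other cells and anchor them to the actin cytoskeleton. Laminins are trimers of an alpha, a beta and a gamma chain and are the main adhesive proteins of basement membranes, including the sheath around each Schwann cell. In peripheral nerve, sensory axons grow on laminin through beta1 integrins, Schwann cells hold on to their basal lamina through the alpha6 beta1 and alpha6 beta4 receptors, and leukocytes use their own integrins to leave vessels and enter the injured ganglion. A ganglion holds all of these cells, so fewer cells of a type and less RNA per cell cannot be told apart in these values.

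Markers of the expected cells were high on every array: 10 sensory neuron genes averaged between 10.89 and 11.38, and 7 genes of myelinating Schwann cells averaged at least 11.53 (log2). Arrays stood apart in other genes. The mean of 15 skeletal muscle genes was 11.55, 10.56, 7.81 and 9.69 in vehicle replicates 1 to 4, against 7.68 to 8.13 in the HDACI arrays. All 15 were lower in HDACI, by a median of -1.90 (log2). Each passed an unadjusted limma p of 0.05, where 1.93% of all probe sets were lower, and none passed after adjustment. The mean of 16 macrophage genes was 10.84 in HDACI replicate 4, against 10.23 to 10.49 in the other HDACI arrays and 10.25 to 10.52 in vehicle, and all 16 were higher in HDACI. Means over 8 genes of non-myelinating and repair Schwann cells (10.33 to 10.52 in HDACI, 10.38 to 10.55 in vehicle), 6 of satellite glia (10.48 to 10.59 and 10.32 to 10.55) and 9 of endothelial cells and pericytes (9.86 to 10.01 and 9.74 to 9.92) overlapped between the groups. In the last of these lists 7 of 9 genes were higher in HDACI, by a median of 0.15 over the list. Of these, 1 passed an unadjusted p of 0.05, where 1.61% of all probe sets were higher.

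No integrin or laminin gene differed between HDACI and vehicle after adjustment. By limma, 0 of 26 members had an adjusted p under 0.05, as had 0 of all 28826 probe sets (0%), and the adjusted p of each member rounded to 1.0. At an unadjusted p under 0.05, Itga11 was higher in HDACI, against 1.61% of all probe sets, and Itgb6 was lower, against 1.93%. Itgb6 was also the only member under an unadjusted p of 0.01, where 0.354% of all probe sets were lower. For 0 of 26 members did the groups fail to overlap, against 2.1% of all probe sets.

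Most differences were small, though their median absolute size of 0.07 was above the 0.05 of all probe sets (log2). Of the 26 members 18 differed by less than 0.1 (log2), and the 95% confidence interval of 24 lay within 0.5 of zero in both directions. The exceptions were Itgb6, whose interval reached down to -0.52, and Itga5, whose interval reached up to 0.58. The median difference was 0.06, with 17 members higher in HDACI and 9 lower (65.4% higher), against a median of 0.01 and 53.3% higher over all probe sets. Genes with integrin symbols, Itgbl1 included, were higher in 14 of 19 cases with a median of 0.08, and laminins in 3 of 7 with a median of -0.01. The median was 0.02 without vehicle replicate 2, still with 17 of 26 higher, and 0.06, 0.08 and 0.06 without vehicle replicate 1, 3 or 4. It was 0.00 without vehicle replicates 1 and 2 together, and -0.01 with 12 of 26 higher when the skeletal muscle mean entered the fit as a covariate. The muscle mean was higher in vehicle replicates 1, 2 and 4 than in any HDACI array, so no fit with it can separate muscle from treatment. Without HDACI replicate 4 the median was 0.05 and 20 of 26 were higher.

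**Figure D1:**
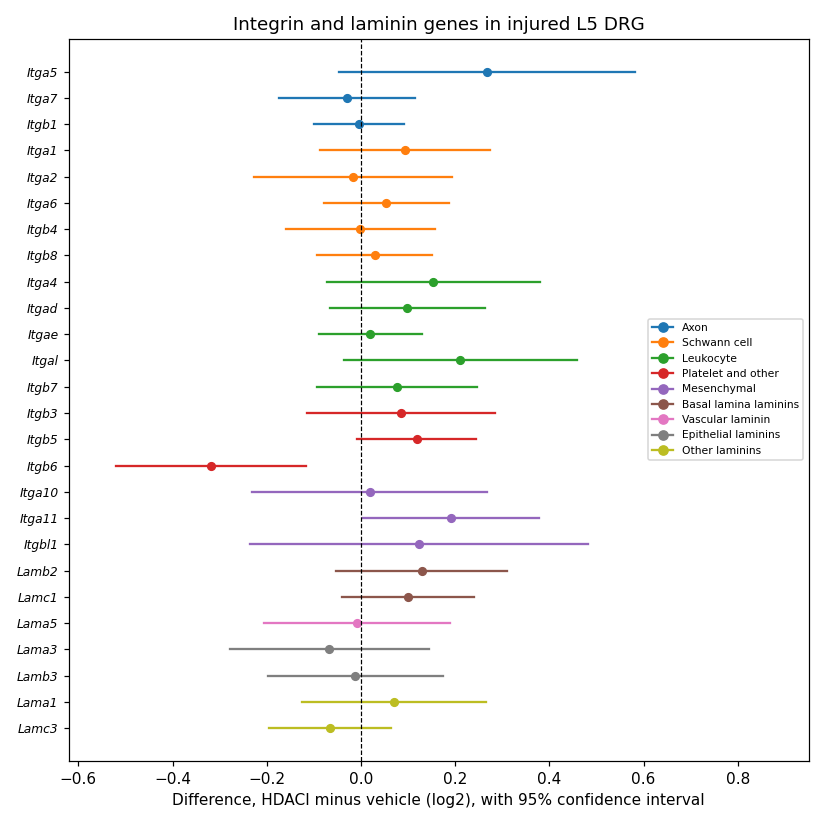
Points give the difference of each of the 26 genes, HDACI minus vehicle on the log2 scale, and lines its 95% confidence interval from limma, coloured by role. The intervals of Itgb6 and Itga11 alone lie clear of zero before adjustment, Itgb6 at -0.32 and Itga11 at 0.19.

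Extreme values gathered in a few arrays. HDACI replicate 4 was the highest of the 8 arrays for 9 members, Itga4, Itga5, Itga10, Itgal, Itgb1, Itgb5, Itgbl1, Lamb2 and Lamc1. It was also the lowest for 5, the Schwann cell and axon receptor chains Itga6, Itga7 and Itgb4 and the laminin chains Lama3 and Lamb3. For Lamb3 it tied with vehicle replicate 1 (6.76 in both). Vehicle replicate 2 was the lowest for 9 members, among them Itga1, Itga4, Itga5, Itgb3, Lamb2 and Lamc1, and the highest for 0. The other arrays were highest for 2 to 5 members each. Over all 8 arrays the SD of a member ranged from 0.03 for Itgb1 to 0.26 for Itga5, with a median of 0.12 (log2).

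**Figure D2:**
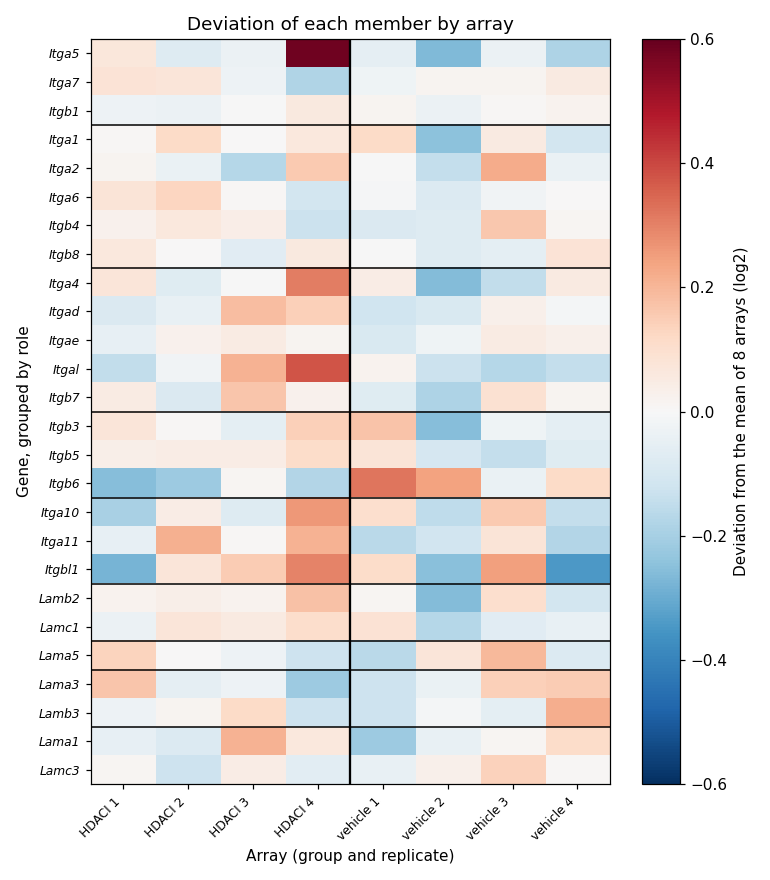
Each cell gives the deviation of 1 gene on 1 array from its mean over all 8 arrays (log2), with genes grouped by role and a black line between HDACI and vehicle arrays. HDACI replicate 4 holds the strongest positive values, in Itga5 and Itgal, and vehicle replicate 2 is mostly below the mean.

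Of the integrins of growing axons, 3 were measured, Itga5, Itga7 and Itgb1. Itgb1, the beta chain shared by most matrix receptors, lay between 12.27 and 12.36 in all 8 arrays, the narrowest range of any member, and differed by 0.00 ± 0.04 (log2, SE; 95% interval -0.10 to 0.09). Itga7, the laminin receptor chain that sensory neurons induce when they regrow axons and that is also abundant in skeletal muscle, measured 11.56, 11.55, 11.45 and 11.30 in HDACI replicates 1 to 4 and 11.45, 11.50, 11.49 and 11.53 in vehicle. The groups overlapped and the lowest value was in HDACI replicate 4. Vehicle replicate 1, highest in muscle genes, was the lowest vehicle array for Itga7, though the vehicle values spanned only 11.45 to 11.53. With the muscle mean as a covariate Itga7 differed by -0.03. What muscle contributed to Itga7 was not tested beyond this. The group means were 11.46 ± 0.12 and 11.49 ± 0.03 (SD, n = 4 each), a difference of -0.03 ± 0.06 (SE), and 0.03 without HDACI replicate 4.

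Itga5, the alpha chain of the fibronectin receptor, is used by axons but also by macrophages, fibroblasts and endothelium. It measured 9.69, 9.54, 9.58 and 10.20 in HDACI replicates 1 to 4 and 9.57, 9.36, 9.58 and 9.44 in vehicle. HDACI replicate 4 was the highest by far, and the other 3 HDACI arrays, from 9.54 to 9.69, reached into the vehicle range. The difference of 0.27 ± 0.14 (log2, SE), the largest positive one among the members, did not pass (limma, unadjusted p = 0.085, adjusted p = 1.0). It was 0.34 without HDACI replicate 2 (limma, unadjusted p = 0.0473) and 0.12 without HDACI replicate 4. It was 0.17 with the macrophage mean as a covariate, a mean that was highest in the same array. What macrophages contributed to Itga5 was not tested beyond this.

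The 5 integrin chains of Schwann cells differed by between -0.02 and 0.09. Itga6 and Itgb4 pair into the receptor that holds myelinating Schwann cells to laminin. Itga6 measured 12.35, 12.41, 12.28 and 12.17 in HDACI replicates 1 to 4 and 12.27, 12.20, 12.25 and 12.28 in vehicle. The HDACI arrays held both its highest and its lowest values, and the difference was 0.05 ± 0.06 (SE). Itgb4 ranged from 12.53 to 12.72 in HDACI and from 12.57 to 12.82 in vehicle and differed by 0.00 ± 0.07. In HDACI replicate 4, lowest for both chains, the mean of the 7 myelinating Schwann cell genes was also lowest (11.53), while it was 11.77 or higher in the other 3 HDACI arrays and 11.79 to 11.94 in vehicle. This list differed by a median of -0.02 between groups, with 2 of 7 higher.

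Itga1, which makes a receptor for collagen and laminin, measured 10.08, 10.19, 10.08 and 10.13 in HDACI and 10.19, 9.82, 10.13 and 9.96 in vehicle replicates 1 to 4. The HDACI arrays were close together (SD 0.05, n = 4), whereas the vehicle arrays spread further (SD 0.16, n = 4) because replicates 2 and 4 were low. The difference was 0.09 ± 0.08 (SE), and 0.03 without vehicle replicate 2. Itga2, a collagen receptor chain, differed by -0.02, and Itgb8, which pairs with alphav and releases active TGF-beta, by 0.03 with all arrays between 12.73 and 12.89.

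All 5 leukocyte integrins measured were higher in HDACI, by 0.02 to 0.21 with a median of 0.10, but none of them passed even before adjustment. Itgal, the alpha chain of LFA-1 that lets leukocytes stick to ICAM proteins on endothelium, measured 9.01, 9.14, 9.37 and 9.54 in HDACI replicates 1 to 4 and 9.18, 9.03, 8.98 and 9.01 in vehicle. Its 2 high values were HDACI replicates 3 and 4, and HDACI replicates 1 and 2 lay within the vehicle range. The difference was 0.21 ± 0.11 (log2, SE; limma, unadjusted p = 0.0864, adjusted p = 1.0). It was 0.12 without HDACI replicate 4 and 0.29 without HDACI replicate 1.

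Itga4, which as VLA-4 binds VCAM-1 and fibronectin, measured 9.65, 9.50, 9.57 and 9.88 in HDACI and 9.62, 9.31, 9.43 and 9.63 in vehicle replicates 1 to 4. Again HDACI replicate 4 was highest and vehicle replicate 2 lowest, and the remaining arrays overlapped. The difference was 0.15 ± 0.10 (SE), and 0.08 without HDACI replicate 4. Itgad, a beta2 partner found on macrophages, differed by 0.10, Itgb7, the beta chain of gut-homing lymphocytes, by 0.08, and Itgae, which marks lymphocytes resident in epithelium, by 0.02. Itgad and Itgae were among the 3 members with a mean under the 30th percentile of all probe sets, together with Lamb3.

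Itgam and Itgb2, the myeloid pair left out of the members, were likewise highest in HDACI replicate 4. Itgb2 measured 9.66, 9.68, 9.85 and 10.56 in HDACI and 9.90, 9.81, 9.56 and 9.71 in vehicle replicates 1 to 4, and Itgam was 9.52 in HDACI replicate 4 against 8.45 to 8.85 in the other 7 arrays. The leukocyte markers were uneven across the same arrays. The macrophage mean was 10.23, 10.26, 10.49 and 10.84 in HDACI replicates 1 to 4, the mean of 12 T cell genes was 7.49 to 7.77 in HDACI and 7.48 to 7.78 in vehicle, and that of 10 neutrophil genes 6.96 to 7.38 and 6.96 to 7.21. With the macrophage mean, which holds Itgam and Itgb2, as a covariate Itga4 differed by 0.10. Under that fit Itgal differed by 0.12 (limma, unadjusted p = 0.0408).

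Itgb6 had the largest difference of any member. It is the beta chain of alphav beta6, an epithelial integrin that activates TGF-beta. Itgb6 values were low: the HDACI mean of 6.92 lay between the means of Itgad, 6.95 in HDACI and 6.85 in vehicle. Itgad was under the percentile cutoff for low means given above, and Itgb6 was above it. Itgb6 measured 6.82, 6.86, 7.09 and 6.90 in HDACI replicates 1 to 4 and 7.40, 7.32, 7.04 and 7.19 in vehicle. Vehicle replicates 1, 2 and 4 lay above all HDACI arrays, and vehicle replicate 3 lay below HDACI replicate 3. The group means were 6.92 ± 0.12 and 7.24 ± 0.16 (SD, n = 4 each), and Itgb6 was 1.25-fold higher in vehicle (difference -0.32 ± 0.09, log2, SE; 95% interval -0.52 to -0.12; limma, unadjusted p = 0.0062, adjusted p = 1.0).

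The vehicle arrays fell in the same order for Itgb6 as for the skeletal muscle mean, replicate 1 highest, then 2, 4 and 3. The HDACI arrays did not: replicate 4 was lowest in the muscle mean (7.68) but above replicates 1 and 2 for Itgb6. With the muscle mean as a covariate Itgb6 differed by -0.13 (limma, unadjusted p = 0.194). As the muscle mean itself differed between the groups, that fit cannot separate muscle from treatment. Without vehicle replicates 1 and 2 Itgb6 differed by -0.20 (limma, unadjusted p = 0.0698). With any single array left out it differed by -0.38 to -0.26. What muscle contributed to Itgb6 was not tested beyond these fits. The mean of 5 epithelial genes was 7.71 to 7.93 in HDACI and 7.90 to 7.97 in vehicle.

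Itgb3, the beta chain of the platelet fibrinogen receptor and of a vitronectin receptor, ranged from 10.34 to 10.54 in HDACI and from 10.14 to 10.56 in vehicle and differed by 0.08 ± 0.09 (SE), or by 0.013 without vehicle replicate 2 and 0.15 without vehicle replicate 1. The mean of 5 platelet genes was 7.38 to 7.52 and 7.26 to 7.48 in the respective groups. Itgb5, another vitronectin receptor chain, measured 10.35, 10.36, 10.35 and 10.42 in HDACI and 10.39, 10.21, 10.17 and 10.24 in vehicle replicates 1 to 4. Vehicle replicate 1 lay among the HDACI arrays and the other 3 vehicle arrays lay below them. The difference was 0.12 ± 0.06 (SE; limma, unadjusted p = 0.063). It was 0.16 without vehicle replicate 1, and 0.21 with the muscle mean as a covariate (unadjusted p = 0.0179).

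**Figure D3:**
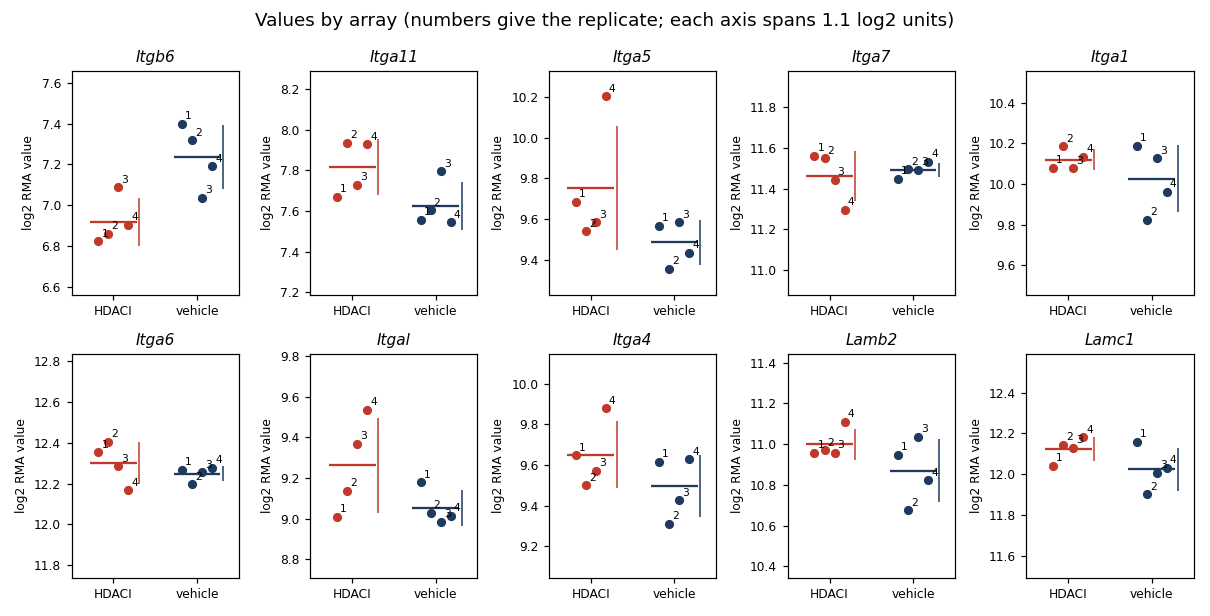
Log2 RMA values of 10 genes on each array, red points for HDACI and blue points for vehicle, with numbers for the replicate, bars for the mean of n = 4 and vertical lines for its SD. The groups overlap in all 10, and HDACI replicate 4 stands apart for Itga5, Itga4 and Lamb2.

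Itga11, a collagen receptor chain of fibroblasts, was the only member higher in HDACI at an unadjusted p under 0.05. It measured 7.67, 7.93, 7.73 and 7.93 in HDACI replicates 1 to 4 and 7.56, 7.60, 7.80 and 7.54 in vehicle. Vehicle replicate 3 lay above HDACI replicates 1 and 3, and the other 3 vehicle arrays lay below the HDACI range. The difference was 0.19 ± 0.08 (log2, SE; limma, unadjusted p = 0.0468, adjusted p = 1.0). With all 8 arrays Itga11 missed the unadjusted threshold under median centring, another quantile normalization, cyclic loess, trend and robust variances, array weights and the macrophage covariate (limma, unadjusted p = 0.0521 to 0.082). With single arrays left out it passed without HDACI replicate 1 or 3 or vehicle replicate 3 and missed without any other, from 0.15 without HDACI replicate 2 to 0.25 without vehicle replicate 3. With the muscle mean as a covariate it differed by 0.07 (unadjusted p = 0.547). Itga10, the collagen receptor chain of chondrocytes, differed by 0.02, and Itgbl1, a secreted protein related to the beta chains, by 0.12 with arrays from 10.22 to 10.86. The Itgbl1 difference was 0.028 without vehicle replicate 4, 0.044 without HDACI replicate 4 and 0.24 without HDACI replicate 1. The mean of 8 fibroblast and perineurial genes ran from 12.08 to 12.55 in HDACI, highest in replicate 4, and from 11.94 to 12.31 in vehicle. All 8 of these genes were higher in HDACI, by a median of 0.16, and 0 of them passed an unadjusted p of 0.05. What fibroblasts contributed to Itga11 was not tested.

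**Figure D4:**
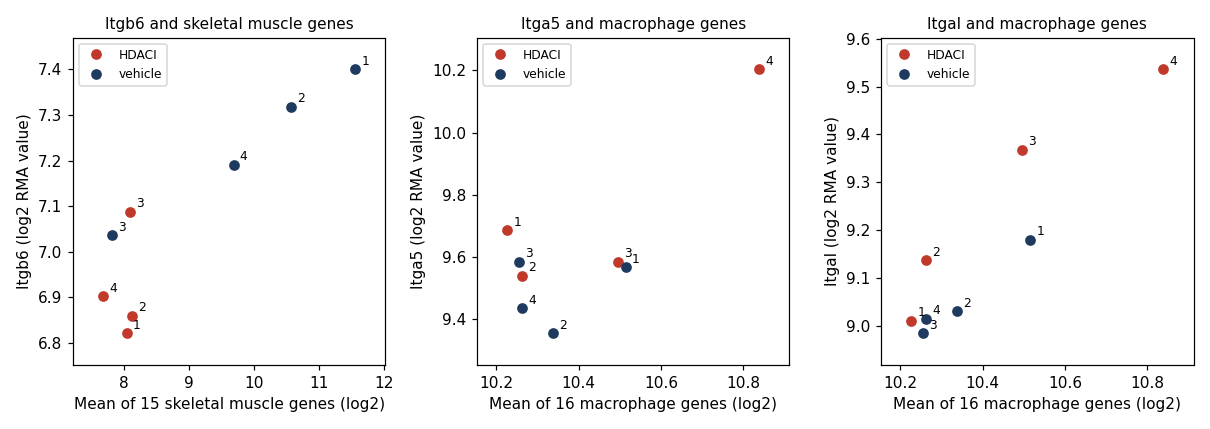
Each point is 1 array, numbered by replicate, with the mean log2 value of skeletal muscle or macrophage genes on the horizontal axis and the log2 value of Itgb6, Itga5 or Itgal on the vertical axis. Vehicle replicates 1, 2 and 4 are high in both muscle genes and Itgb6, and HDACI replicate 4 is high in both macrophage genes and Itga5 and Itgal.

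Among the laminins, the gamma1 and beta2 chains of the Schwann cell basal lamina had the smallest p. Lamc1, the gamma chain of most laminins, measured 12.04, 12.14, 12.13 and 12.18 in HDACI replicates 1 to 4 and 12.16, 11.90, 12.01 and 12.03 in vehicle. Vehicle replicate 2 was lowest, vehicle replicate 1 lay among the HDACI arrays, and the difference was 0.10 ± 0.06 (SE). Lamb2, a beta chain of mature nerve, vessel and neuromuscular junction basal laminae, measured 10.96, 10.97, 10.96 and 11.11 in HDACI and 10.95, 10.68, 11.04 and 10.82 in vehicle. The vehicle arrays spread wider (SD 0.16 against 0.08, n = 4 each), and the difference was 0.13 ± 0.08 (SE), or 0.06 without vehicle replicate 2. With all arrays neither chain passed before adjustment (limma, unadjusted p = 0.144 for both). Lamc1 differed by 0.14 without vehicle replicate 1 (unadjusted p = 0.0322), by 0.13 with array weights (unadjusted p = 0.0439) and by 0.058 without vehicle replicate 2. Lamb2 differed by 0.18 without vehicle replicate 3 (unadjusted p = 0.0436).

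The 5 other laminin chains differed by between -0.07 and 0.07. Lama5, the alpha chain of vascular basement membranes, differed by -0.01 with arrays from 8.89 to 9.25. Lama3 and Lamb3, chains of the epidermal laminin, differed by -0.07 and -0.01. Lama1, an alpha chain of embryonic and meningeal basement membranes, differed by 0.07, and the gamma chain Lamc3 by -0.07.

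Genes that work with the members were compared in the same fit. Of 28 integrin adaptors and signalling genes 19 were higher in HDACI (median 0.03), of 7 basement membrane partners 6 (median 0.06), and of 15 other integrin ligands 11 (median 0.08). At an unadjusted p under 0.05, where 1.61% of all probe sets were higher in HDACI and 1.93% lower, a single gene of these lists passed. This was Icam1, the endothelial ligand of LFA-1, which measured 9.81, 9.95, 9.90 and 9.93 in HDACI and 9.75, 9.61, 9.86 and 9.66 in vehicle (difference 0.18 ± 0.06, SE; limma, unadjusted p = 0.0187, adjusted p = 1.0). The endothelial and pericyte genes were mostly higher in HDACI as well, as given above, and what those cells contributed to Icam1 was not tested. Next by p among the ligands were the metalloprotease Adam9 (0.08), Tgfb1, which alphav integrins release from its latent form (0.15), and fibronectin, Fn1 (0.27 ± 0.17), which was 13.43 in HDACI replicate 4 against 12.47 to 13.03 in the other 7 arrays. The ligand with the largest difference, chosen after its values were seen, was periostin, Postn (0.51 ± 0.43), which was 12.17 in HDACI replicate 4 against 9.95 to 10.80 in the other 7 arrays. Among the adaptors the smallest p belonged to the focal adhesion protein Zyx (0.14 ± 0.07), the leukocyte kindlin Fermt3 (0.15 ± 0.10), Parva (0.07) and Cib1 (0.10). In the basement membrane list they were Col4a1 (0.13 ± 0.08), Sparc (0.06), Nid2 (0.07) and Col4a4 (0.08).

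Of 15 pairs of chains known to assemble, 7 had both partners measured. The pairs were chosen with earlier results of these data known, so their p-values are not those of a fresh test. Over the 8 arrays Itgal and Itgb2, the chains of LFA-1, varied together (Pearson r = 0.87, exact permutation p = 0.00662, 0.0464 adjusted over the 7 pairs, Spearman rho = 0.90, exact permutation p = 0.00456, 0.0319 adjusted). Within groups, on deviations from the group means, r was 0.88. Leaving out HDACI replicates 3 and 4, the arrays farthest from the median of Itgal, r was 0.66 over the remaining 6. Itgb2 is itself in the macrophage list, and HDACI replicate 4 was highest for Itgal, Itgb2 and the macrophage mean alike. What leukocyte content contributed to this correlation was not tested. Itga7 and Itgb1 varied in opposite directions (r = -0.78, exact permutation p = 0.0178, 0.0624 adjusted, rho = -0.55, exact permutation p = 0.171, 0.277 adjusted), and r was -0.36 without HDACI replicates 1 and 4. The other 5 pairs, Itga6 with Itgb4, Itga5 with Itgb1, Itga4 and Itgae with Itgb7, and Lama3 with Lamb3, had r from 0.39 to 0.67 and adjusted exact permutation p from 0.15 to 0.343. For Itga6 with Itgb4 r was 0.55, and 0.26 without HDACI replicates 2 and 4. For Itga5 with Itgb1 it was 0.67, and -0.54 without HDACI replicate 4 and vehicle replicate 2, so that this value rested on those arrays.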

How the data were processed

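RNA of 8 ganglia, 4 per group and called biological replicates by the authors, was measured on whole-transcript arrays. The authors preprocessed them with RMA in the Bioconductor package oligo (version not given in the sources used here), and the deposited values are on the log2 scale. Quantile normalization hides a change shared by all transcripts, and RMA compresses differences of dim probe sets. Arrays have no read depth, and their number limits the precision. Array medians lay between 8.13 and 8.16, and no pair of arrays shared over 0.0486% of values.

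Gene names came from the platform annotation. Of 28826 probe sets 15209 carried 1 symbol, 306 several and 13311 none, and all 26 members had a current RefSeq gene. Itga3, Itga8, Itga9, Itgav, Itgax, Itga2b, Lama2, Lama4, Lamb1 and Lamb4 were not analysed here. Differences, HDACI minus vehicle, were estimated in R 4.3.3 by limma 3.58.1 over all probe sets, two-sided, with Benjamini-Hochberg adjustment and no covariate, checked on simulated data. Marker, role and pathway lists, the partner pairs and the members were chosen with earlier results of these data known. Values by array were given for members past an unadjusted p of 0.05 and for the 2 with the smallest p among axon, Schwann cell, leukocyte and laminin genes. Those of Itgb5, Itgb2 and Icam1 were added after they had been seen. Pairs were tested by exact permutation over arrays. A marker mean is the average log2 value of the list on an array.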

Additional observations from a re-analysis of the deposited data

Results flagged for a closer look

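Within groups of 4 arrays, the gap between an extreme array and its nearest neighbour was compared with the whole range of the group, which by chance passes Dixon's 95% limit in about 1 group in 20. Of 52 combinations of member and group, 2 passed. HDACI replicate 4 was high for Lamb2 (gap over range 0.920, 11.11 against 10.96 to 10.97) and for Itgb5 (0.869, 10.42 against 10.35 to 10.36).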

How the results depend on the processing

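No member passed an adjusted p of 0.05 in any fit, whichever array was left out. The 2 members past an unadjusted p of 0.05, Itgb6 and Itga11, became 1 with median centring, cyclic loess or another round of quantile normalization (Itgb6), and 1 with the skeletal muscle mean as a covariate or vehicle replicates 1 and 2 left out (Itgb5). They were Itgb6, Itgb5 and Lamc1 with array weights, Itgb6 and Itgb5 with trend and robust variances, and Itgb6 and Itgal with the macrophage covariate. With single arrays left out they were 1 to 3, always with Itgb6 (Itgb6 alone without HDACI replicate 4, vehicle replicate 2 or vehicle replicate 4). Itga5 entered without HDACI replicate 2, Itgal without HDACI replicate 1, Itgb5 and Lamc1 without vehicle replicate 1, and Lamb2 without vehicle replicate 3. Shares of all probe sets past the threshold are given only for the fit behind the main results. Counts from the other fits thus have no such share to be set against. The median difference turned to -0.0079 with the muscle mean as a covariate. Signs turned only in members with small differences, Itgbl1 (0.12 in the report) being the largest. With that covariate Itga10 was -0.063, Itgae -0.050, Lama1 -0.043, Itgb7 -0.032 and Itgbl1 -0.0020. With the macrophage mean Itga10 was -0.041, Lama5 0.039, Itgb4 0.037, Itga7 0.017 and Lamb3 0.016. Array weights gave Itga7 0.012, Itgb4 0.010 and Lamb3 0.0081. Itgb4 was 0.0033 after the repeated quantile normalization and 0.0019 after cyclic loess. Without vehicle replicates 1 and 2 Itgae was -0.030, Lama1 -0.027 and Itgb7 -0.015. With single arrays left out, Itga10 ranged from -0.066 to 0.085, Itga2 from -0.073 to 0.054, Itga7 from -0.062 to 0.026, Itgae from -0.0075 to 0.040, Itgb1 from -0.024 to 0.0073, Itgb4 from -0.031 to 0.052, Lama5 from -0.065 to 0.054 and Lamb3 from -0.055 to 0.058. The cause of these changes was not tested. With the replicate block 2 members passed the unadjusted threshold, and Itga11 did not. There limma gave Itgb6 an unadjusted p = 0.0265 and Itga4 an unadjusted p = 0.0415. The replicate numbers are not described as a pairing. Deviations of same-numbered arrays correlated at -0.28 to 0.01, and those of differently numbered arrays at -0.30 to 0.34, which cannot exclude a pairing. Every member has 1 probe set, so averaging probe sets was not run.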
